A study of Homo sapiens with 4 samples.

Results

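The circRNAs described here were listed in a circRNA-seq table of AGS cells, an established human gastric adenocarcinoma line, but had no back-splice read in any library. They were chosen by their measured counts, as the entries with 0 reads in all 4 libraries, and they numbered 4173 of 11760 listed circRNAs (35.5%). The other 7587 circRNAs had reads in at least 1 library. The libraries came from AGS cells transfected with FLAG-DDX5 (DDX5, 2 libraries) and from AGS cells that received the FLAG-tagged empty vector instead (NC, 2 libraries). The study asked whether DDX5, a DEAD-box RNA helicase, changes the circRNAs of these cells. Before sequencing, rRNA was removed and linear RNA was digested with the exonuclease RNase R, which leaves circles intact, so the values say nothing of the linear transcripts of the same genes.

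A circRNA arises when the spliceosome joins the end of an exon (the splice donor) to the start of the same exon or of an exon upstream of it (the splice acceptor), which closes the RNA between them into a ring. The joined pair is the back-splice junction, and reads across it are what the counts hold. Many host genes give several circRNAs that reuse a donor or an acceptor in different pairs. Circularized exons are known to be flanked by long introns, often with inverted repeats that can pair across the circle, and often include the second exon of a gene.

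The junction sequences, taken from annotation and not from reads, show which sites a circRNA without reads shares with detected circRNAs of the same gene. The circRNAs without reads shown here share their donor with a detected circRNA and their acceptor with another, and were taken among those whose partners were the most abundant. Exon numbers come from the pair of exon edges of the host whose distance equals the span of the circle, because few listed positions match GRCh38 exon edges and the build of the table is uncertain. Each sequence joins the last 20 bases of the donor exon, in lower case, to the first 20 bases of the acceptor exon, in capitals, and was read from GENCODE 29 transcripts on GRCh38 (ENST00000261401.7, ENST00000376752.8 and ENST00000360802.5). In each set the first line had 0 reads, and both its parts recur in the lines below it.
CORO1C exons 4 to 8, 0 reads: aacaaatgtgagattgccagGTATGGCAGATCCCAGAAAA
CORO1C exons 4 to 5, 63 reads: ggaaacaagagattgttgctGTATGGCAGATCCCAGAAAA
CORO1C exons 7 to 8, 937 reads: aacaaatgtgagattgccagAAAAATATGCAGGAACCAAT
PCSK5 exons 4 to 7, 0 reads: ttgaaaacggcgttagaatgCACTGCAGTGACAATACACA
PCSK5 exons 4 to 5, 47 reads: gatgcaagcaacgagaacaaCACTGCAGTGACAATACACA
PCSK5 exons 6 to 7, 724 reads: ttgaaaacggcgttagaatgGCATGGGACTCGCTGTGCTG
UBAP2 exons 7 to 10, 0 reads: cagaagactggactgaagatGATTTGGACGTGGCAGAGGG
UBAP2 exons 7 to 8, 606 reads: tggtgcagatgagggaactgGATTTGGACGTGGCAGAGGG
UBAP2 exons 9 to 10, 30 reads: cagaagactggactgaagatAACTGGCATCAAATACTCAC

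A listed 0 has limits that bear on every result. Back-splice reads summed to 78377 and 60178 in the DDX5 libraries, against 73173 and 97961 in the NC libraries. By counting error alone, up to 3 reads are compatible with a listed 0. They equal 38.3 and 49.9 RPM in DDX5 cells, against 41.0 and 30.6 RPM in NC cells, where RPM is the authors' scaling of each library to the same sum of back-splice reads. The smallest count above 0 in the table was 2 and no value equalled 1, so junctions with a single read in a library may be among the zeros. Some zeros stood beside much higher counts. The circRNA of exons 6 to 10 of BANP had 0 and 42 reads in DDX5 cells, against 29 and 80 in NC cells. That of exon 3 of DHX34 had 34 and 0 reads in DDX5 cells, against 52 and 23 in NC cells. The cause of such zeros was not tested, and for them 3 reads may not be an upper bound. The circRNAs just outside the rule were the 185 with a total of 2 reads and the 282 with a total of 3 reads over the 4 libraries. Why the table lists circRNAs without reads is not given in the sources used here. DDX5 itself hosted none of the listed circRNAs, so the transfected gene could not be checked in these counts.

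CORO1C encodes a coronin, an actin-binding protein. Its circRNA of exons 4 to 8, a span of 9887 bases on chromosome 12 from 109046048 to 109055934 in the coordinates of the files, had no reads. The circRNA of exons 4 to 5, which starts at the same acceptor, had 9 and 13 reads in DDX5 cells, against 29 and 12 in NC cells. The circRNA of exons 7 to 8, which ends at the same donor, had 227 and 210 reads in DDX5 cells, against 300 and 200 in NC cells. Both sites were thus joined in circles in every library, but no read that joined them to each other was listed.

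The same held for PCSK5, a proprotein convertase, at 48161 bases on chromosome 9 (78638654 to 78686814). The acceptor of exon 4 was joined to exon 5 with 14 and 9 reads in DDX5 cells, against 21 and 3 in NC cells. The donor of exon 7 was joined to exon 6 with 191 and 129 reads in DDX5 cells, against 197 and 207 in NC cells. In UBAP2, a ubiquitin-associated protein gene, the circle without reads spanned 12412 bases on chromosome 9 (33960824 to 33973235). Its acceptor partner had 131 and 138 reads in DDX5 cells, against 181 and 156 in NC cells. The partner at its donor had 0 and 0 reads in DDX5 cells, against 30 and 0 in NC cells, so this site was seen in 1 library only.

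Across the table, 214 of the 4173 circRNAs without reads (5.13%) had both sites in use in this way, and 634 of those with reads (8.36%). Among those without reads, a shared donor or acceptor, at least, was found for 1658 (39.7%, Wilson 95% interval 38.3 to 41.2). No shared site was found for 2515 (60.3%). Of these, 1059 came from hosts without any detected circRNA, where no site could be shared. The acceptor was shared by 978 and the donor by 894. Intervals treat circRNAs as independent, which those of 1 gene are not, and cover counting error only. Among circRNAs with reads, 3518 (46.4%, interval 45.2 to 47.5) shared a site with another detected circRNA of their host. Within host genes that had both kinds the shares were 53.3% of 3113 circRNAs without reads and 53.2% of 4765 with reads. Both sites were shared by 6.87% of those without reads and 10.5% of those with reads. A detected circRNA was matched only to the other detected circRNAs of its host, and one without reads to all of them. The pools of possible partners were thus unlike. Neither the gap over all circRNAs nor the closeness within hosts of both kinds is read as a result.

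Each circle without reads was paired with 1 detected circle per shared site, and was more often the larger one. It was longer than its partner in 601 of 978 pairs at an acceptor (61.5%) and in 496 of 894 pairs at a donor (55.5%). Of the pairs in which both circles could be placed on exons, 415 of 928 at an acceptor (44.7%) differed by exactly 1 exon. At a donor, 416 of 854 did (48.7%). The circle without reads held 1 exon more in 226 and 1 fewer in 189 at an acceptor, and in 199 and 217 at a donor. No such shares are given for pairs of detected circRNAs, so these are not read as a trait of circRNAs without reads. The detected circRNAs that shared a site with a circRNA without reads had a median of 15.0 reads and 15.7% of them were seen in all 4 libraries. Other detected circRNAs of the same hosts had a median of 12.0 reads and 11.9% were seen in all 4 libraries. The counts behind these levels are the ones that define detection, and no test was made of them.

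The circRNAs without reads spanned longer stretches of the genome than those with reads. Their median genomic span was 5468 bases (quartiles 1998 and 13206), against 4643 bases (quartiles 1558 and 12017) for circRNAs with reads, a ratio of 1.18. Spans under 1 kb made up 13.5% of the circRNAs without reads and 17.3% of those with reads, and spans of at least 50 kb 3.14% and 2.52%. The medians formed a graded series with the number of libraries that held reads, which is itself a readout of abundance. They were 5468 bases at 0 libraries, 5267 at 1, 4366 at 2, 4045 at 3 and 3221 at 4. The circRNAs without reads thus lay next to the 4201 seen in 1 library and farthest from the 1011 seen in all 4.

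**Figure D1:**
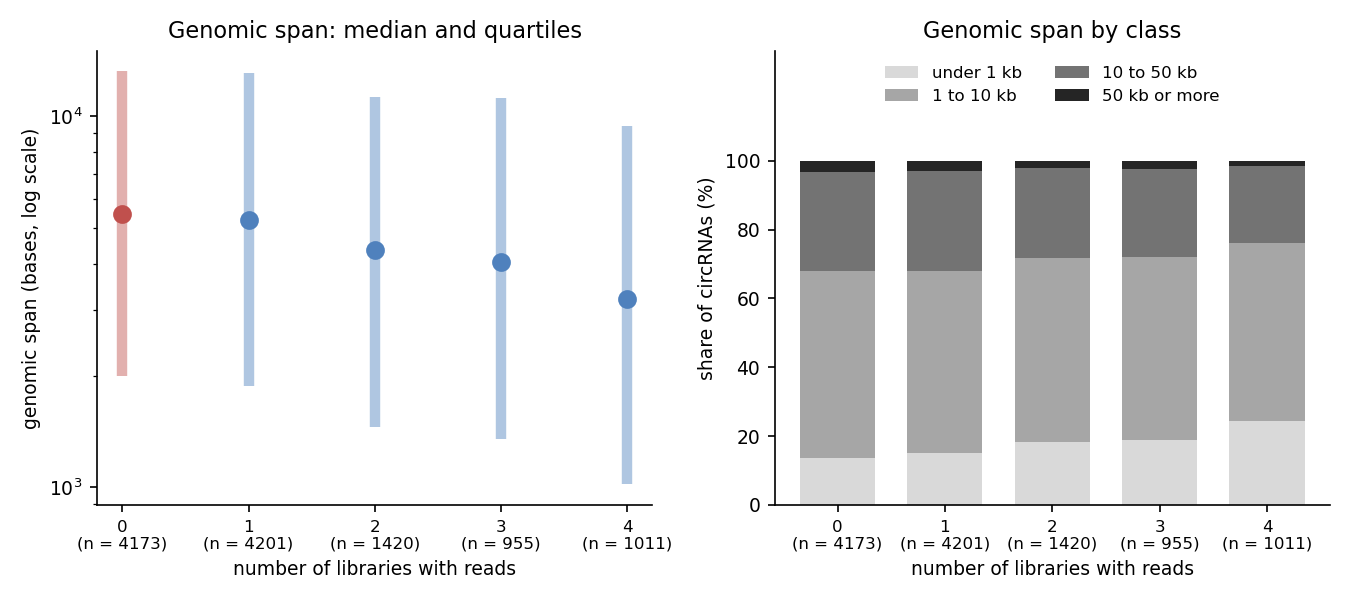
Genomic span of circRNAs by the number of libraries with reads, from 0 (the circRNAs without reads, red) to 4. The left panel gives the median (points) and quartiles (bars) on a log axis and the right panel the share in each class of span; the median falls from 5468 bases at 0 libraries to 3221 at 4, while the quartiles of all classes overlap.

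The shortest circRNAs without reads came from ANKLE2 (136 bases), AXIN2 (141 bases), PABPN1 (152 bases), WDR70 (154 bases) and VARS (159 bases). AXIN2 encodes a scaffold of the beta-catenin destruction complex, PABPN1 the nuclear poly(A)-binding protein and VARS valyl-tRNA synthetase. Those of PABPN1 (exon 6 of 7), WDR70 (exon 8 of 18) and VARS (exon 17 of 30) were circles of 1 exon. The longest came from AGAP1 (199728 bases), RERE (191959 bases), ATP9B (180968 bases), PARD3 (179441 bases) and ATXN1 (168312 bases). A long span did not mean a long circle. The circRNA of PARD3, a cell polarity protein of epithelia, held exons 2 and 3 and 283 bases of exon, and that of ATXN1, the ataxin gene, exons 2 to 5 and 418 bases.

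Of the circRNAs without reads, 4028 (96.5%) could be placed at exactly 1 pair of exon edges of their host, as could 7323 (96.5%) of those with reads. Those without reads held a mean of 3.63 exons and those with reads 3.26. The median was 3 in both, and 24.4% and 18.1% held 5 exons or more. Circles of a single exon made up 6.01% (242) and 6.87% (503), and 11.0% of the circRNAs seen in all 4 libraries. The median spliced length was 414 bases without reads and 382 bases with reads, and the median GC content of the exons 46.4% and 47.3%. The largest circle without reads held 47 exons, against 26 for any circRNA with reads, and came from a host without any read. Within hosts that had both kinds, the largest held 27 exons without reads and 26 with reads.

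The position in the gene differed too. The circle began at exon 2 of the transcript for 846 circRNAs without reads (21.0%, interval 19.8 to 22.3) and for 1826 with reads (24.9%, interval 24.0 to 25.9). This share was 34.0% among circRNAs seen in all 4 libraries. The introns on both sides were shorter for the circRNAs without reads. The upstream intron had a median of 5117 bases without reads and 6185 bases with reads, and the downstream intron 4385 bases and 5076 bases. In the circRNAs seen in all 4 libraries, these medians were 8240 and 7549 bases. Within hosts that had both kinds, the gap at exon 2 was smaller and the intervals overlapped, with 18.7% without reads (interval 17.4 to 20.2) and 20.9% with reads (interval 19.7 to 22.1), and the upstream intron had medians of 5519 and 6473 bases. Nearly all circles lay within protein-coding hosts (99.5% and 99.3%), and 88.3% of the placed circRNAs without reads, against 87.5% of those with reads, held only coding exons.

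**Figure D2:**
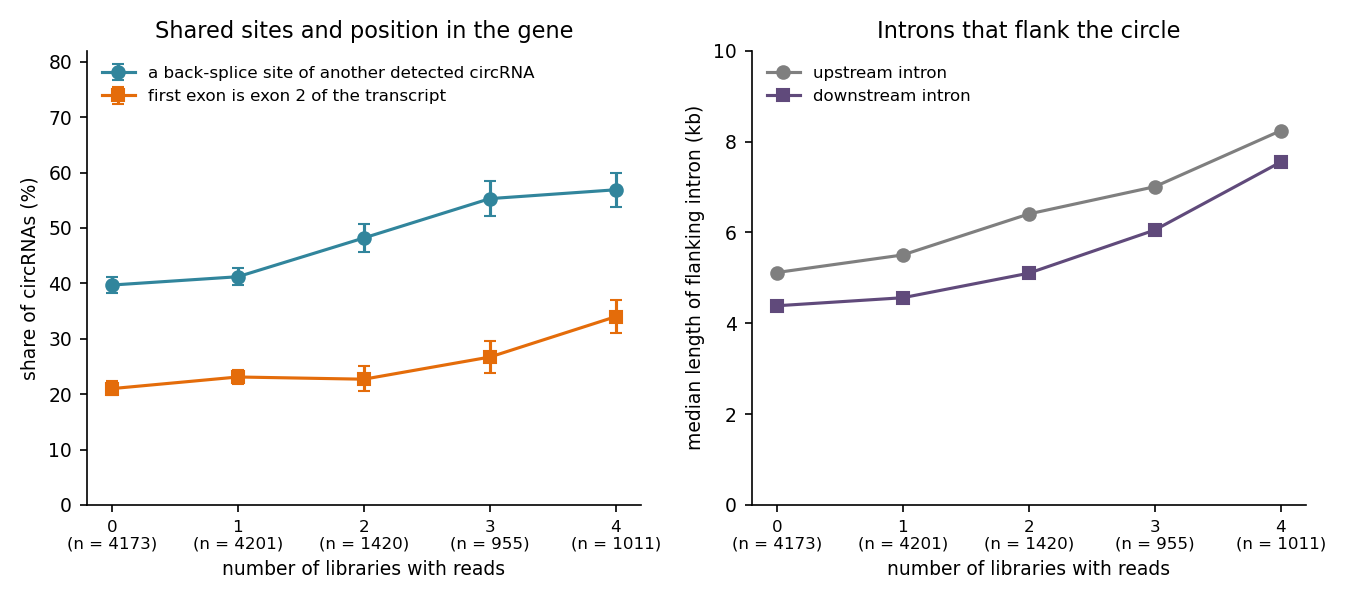
Properties of circRNAs by the number of libraries with reads, from 0 to 4. The left panel gives the share with a back-splice site of another detected circRNA of the host (circles) and the share that begin at exon 2 (squares), with Wilson 95% intervals. The right panel gives the median length of the upstream and the downstream intron in kb, 5117 and 4385 bases at 0 libraries and 8240 and 7549 bases at 4. Of the 4173 at 0 libraries, 1059 came from hosts without a detected circRNA and could share no site. The shares of sites are thus not compared between classes.

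The strands and chromosomes held nearly equal shares. Plus-strand circRNAs made up 51.1% of those without reads and 51.0% of those with reads. By chromosome, the share of listed circRNAs without reads lay between 29.5% (196 of 664, interval 26.2 to 33.1) on chromosome 19 and 39.8% (176 of 442, interval 35.4 to 44.5) on chromosome 15. The interval covered the share of the whole table on 22 of 23 chromosomes, and chromosome 19 was the exception. The median span was longer without reads on 19 of 23 chromosomes. On chromosome 19 it was 3066 bases without reads and 1620 with reads. The exceptions were chromosomes 4, 18, 20 and X.

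**Figure D3:**
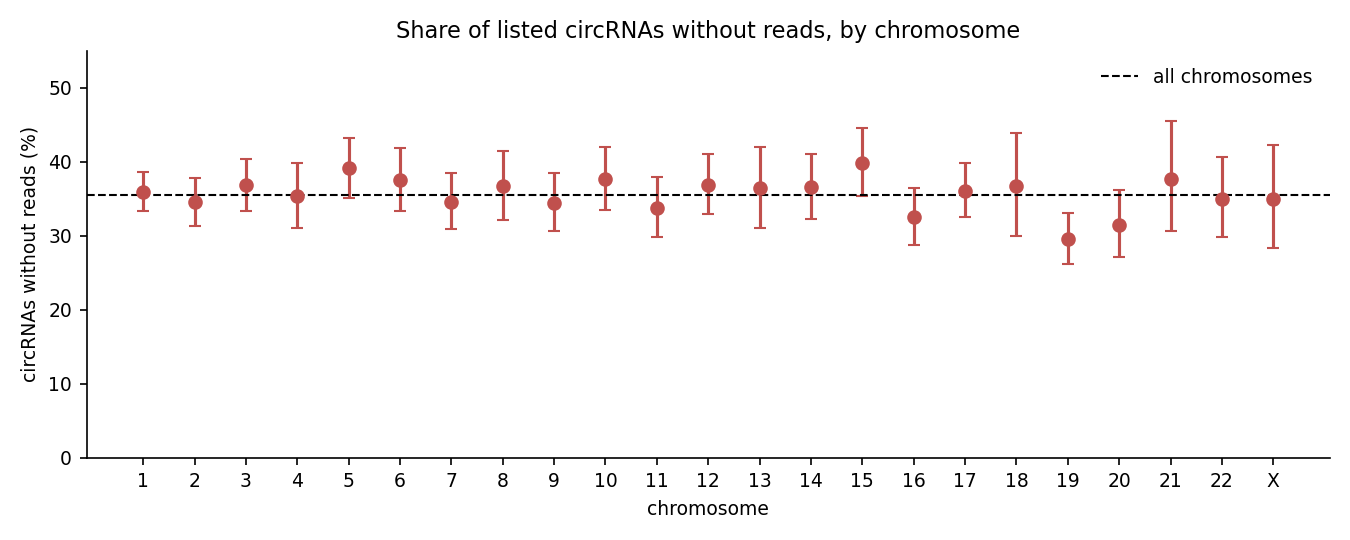
Share of listed circRNAs without reads on each chromosome (points) with Wilson 95% intervals; the dashed line is the share over the whole table, 35.5%. Chromosome 19, at 29.5%, is the only one whose interval lies apart from the line.

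Most host genes of circRNAs without reads also had a circRNA that was detected. The 4172 circRNAs without reads that carry a host name came from 2591 genes, and 1714 of these genes (66.2%) had another circRNA with reads. They held 3113 (74.6%) of the circRNAs without reads. The other 877 hosts (33.8%), with 1059 circRNAs, had no read in any listed circRNA. Of these, 729 (83.1%) were listed with 1 circRNA, 123 with 2 and 25 with 3 or more. A further 1818 hosts had reads in every listed circRNA. The share without reads changed little with the number of circRNAs listed for a host, from 37.3% in hosts with 1 to 33.9% in hosts with at least 10.

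Within the 1714 hosts with both kinds, the circRNAs without reads outnumbered the detected ones in 268, equalled them in 594 and were fewer in 852. Their median span was longer than that of the detected circRNAs in 965 hosts (56.3%) and shorter in 749 (43.7%). They held more exons in 810 of 1658 hosts (48.9%), fewer in 606 (36.6%) and as many in 242. Over these hosts together, the median span was 6345 bases without reads and 5802 bases with reads, a smaller gap than over the whole table. In position, 883 circRNAs without reads (28.4%) enclosed a detected circle of the same host, 715 lay inside one and 196 did both. Another 318 overlapped one in part and 1001 (32.2%) lay apart from every detected circle. Positions of detected circRNAs to each other were not counted, so these numbers are not read as a trait of circRNAs without reads. Circles of the 877 hosts without any read had a median span of 3332 bases and began at exon 2 in 27.7%. Hosts with both kinds were listed with a median of 4 circRNAs, while 83.1% of these 877 were listed with 1. The hosts most like them, the 1818 with reads in every listed circRNA (median of 1 circRNA), were not compared in span or exon 2. The values are thus not read as a trait of hosts without any read.

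ABCC4, an efflux transporter of cyclic nucleotides and drugs, was among the hosts with the most circRNAs without reads. It lies on chromosome 13 and was listed with 22 circRNAs, and all 11 without reads shared a site with a detected one. Its detected circRNAs summed to 76 and 75 reads in DDX5 cells, against 65 and 113 in NC cells. The most abundant, of exons 10 to 13, had 13 and 12 reads in DDX5 cells, against 11 and 36 in NC cells. Circles without reads enclosed exons 5 to 13 and 11 to 14, where detected circles used both sites. Another enclosed exons 10 to 11, where detected circles used the acceptor only. The longest, of exons 21 to 30, spanned 48686 bases.

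BAZ1B and BRWD1, both bromodomain proteins, CNOT1, the scaffold of the CCR4-NOT deadenylase, MYO9B, an unconventional myosin, PTK2, the focal adhesion kinase, and VPS13D, a lipid transfer protein, had 8 circRNAs without reads each. ABCC1, a drug efflux pump, and MSH3, a mismatch repair protein, had 7 each. In CNOT1, 8 of 10 circRNAs had no reads, and the 2 detected ones summed to 16 and 0 reads in DDX5 cells, against 11 and 20 in NC cells.

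**Figure D4:**
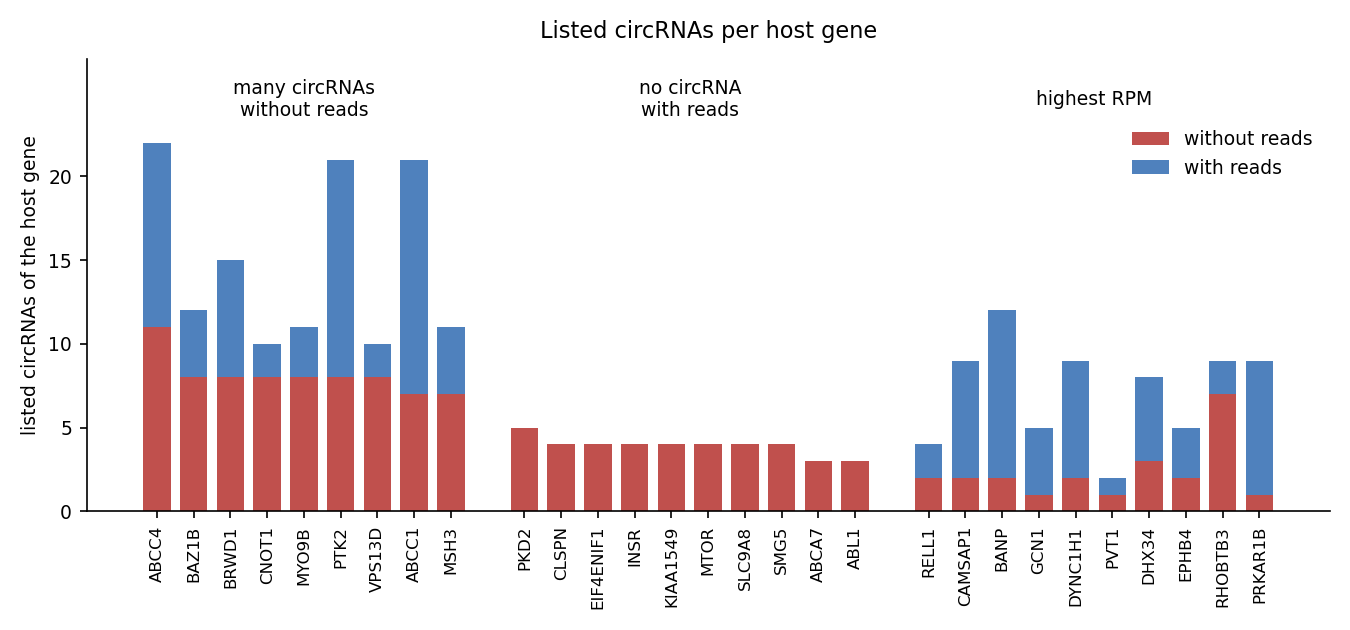
Number of listed circRNAs without reads (red) and with reads (blue) in host genes of 3 kinds: those with many circRNAs without reads (left), those with the most among hosts without any read (middle), and those with the highest RPM among hosts with a circRNA without reads (right). RHOBTB3, among the most abundant hosts, had no reads in 7 of its 9 circRNAs.

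Abundant hosts also had circRNAs without reads. RHOBTB3 had a circle of exons 6 to 7 with 369 and 190 reads in DDX5 cells, against 411 and 489 in NC cells. A circle of exons 7 to 10 had 30 and 0 reads in DDX5 cells, against 15 and 29 in NC cells. The other 7 of its 9 listed circRNAs had no reads, among them exons 6 to 8, 4 to 7 and 5 to 7, each of which shared a site with a detected circle. MYO9B had 8 circRNAs without reads beside 1 of exon 2 with 129 and 204 reads in DDX5 cells, against 161 and 189 in NC cells, which was 98.4% of the reads of its host.

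RELL1, a member of the RELT family of receptors, had the highest RPM of all hosts with a circRNA without reads. Over its 2 detected circRNAs it averaged 13536 ± 973 RPM in the DDX5 libraries and 14187 ± 791 RPM in the NC libraries (SD, n = 2 each). The circles of exons 2 to 6 and 2 to 3 had none. The first of these ended at exon 6, as did both detected circles. DHX34, a helicase of nonsense-mediated decay, had 331 and 303 reads in DDX5 cells, against 339 and 365 in NC cells, in a circle of exon 6 alone. Its circles of exons 5 to 6 and 4 to 6 had no reads, while exons 2 to 6 had 13 and 8 reads in DDX5 cells, against 0 and 46 in NC cells. CAMSAP1, BANP, GCN1, DYNC1H1, PVT1, EPHB4 and PRKAR1B, the other abundant hosts, had 1 or 2 circRNAs without reads each.

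**Figure D5:**
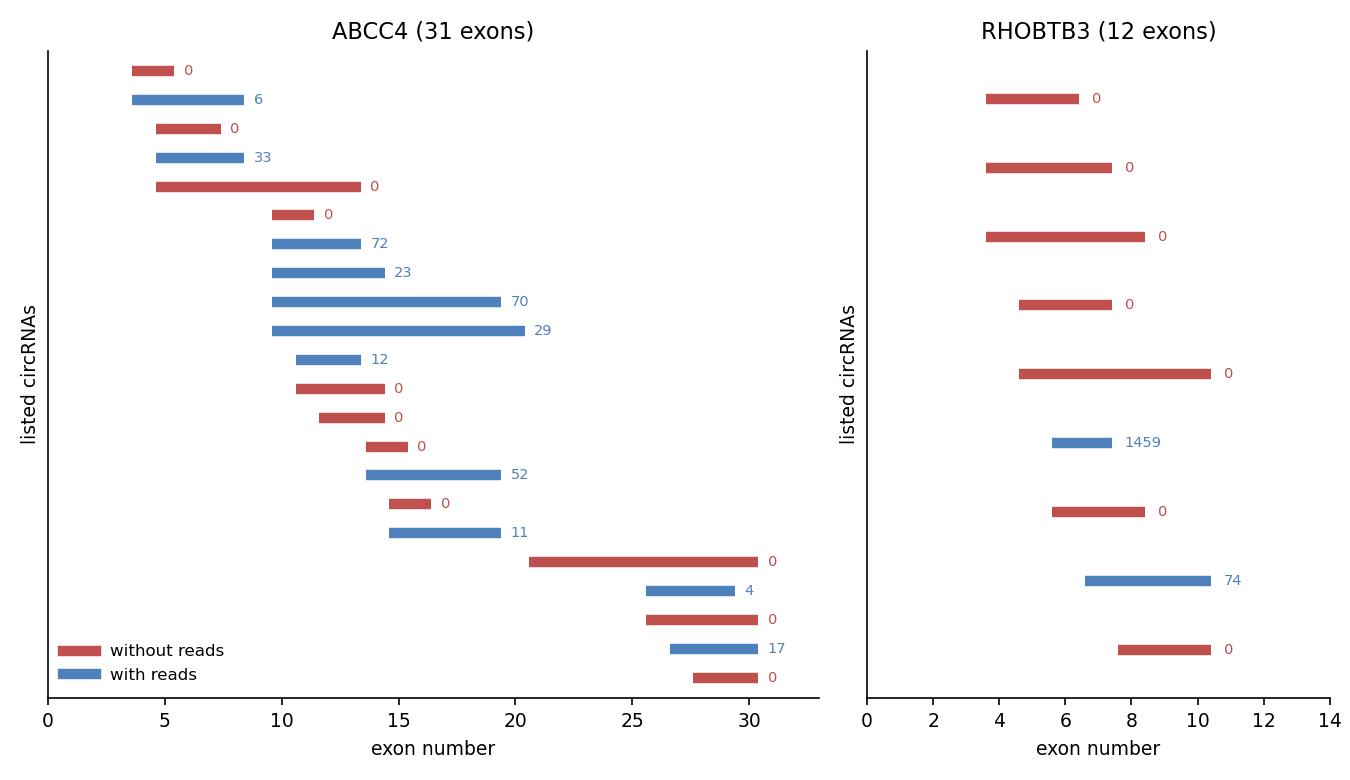
Exons enclosed by each listed circRNA of ABCC4 (left) and RHOBTB3 (right), as bars along the exon numbers of the GENCODE 29 transcript, without reads in red and with reads in blue; the number beside a bar is its sum of reads over the 4 libraries. Circles without reads begin or end at the same exons as detected ones, as at exon 10 of ABCC4 and exon 7 of RHOBTB3.

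Among hosts without any read, PKD2, the polycystin cation channel, was listed with the most circRNAs, 5, with spans between 225 and 13908 bases. They enclosed exons 4 to 7, 5, 9 to 13, 10 to 12 and 12 to 13 of 15. CLSPN, a mediator of the replication checkpoint, EIF4ENIF1, which binds eIF4E, INSR, the insulin receptor, KIAA1549, MTOR, the kinase of the mTOR complexes, SLC9A8, a sodium-proton exchanger, and SMG5, a factor of nonsense-mediated decay, had 4 each. ABCA7, a lipid transporter, and ABL1, a tyrosine kinase, had 3 each. The circles of INSR lay near its 5′ end, as exon 2, exon 3, exons 3 to 9 and exons 4 to 5 of 22. Those of MTOR were spread over the gene, as exons 7 to 8, 32 to 34, 38 to 47 and 48 to 49 of 58. Back-splice counts do not show whether the linear RNA of these genes was present.

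Few of the listed circRNAs came from markers of other tissues. Of 45 gastric and epithelial genes, 21 were hosts, with 70 listed circRNAs and 26 without reads (37.1%, interval 26.8 to 48.9). PARD3 and TJP1, a tight junction scaffold, had 4 each, and CDH17, the intestinal cadherin, had no read in either of its 2. Of 60 neuronal and synaptic genes, CADPS2 alone was a host, with 1 of 3 circRNAs without reads. Of 38 muscle genes, 2 were hosts, with 1 of 6 without reads, in PDLIM5. Of 35 stromal and endothelial genes, ZEB1 alone was a host, with 1 circRNA and no reads. Of 45 immune and blood genes, 5 were hosts, and 0 of their 7 circRNAs lacked reads. Of 33 hepatocyte genes, HNF4A alone was a host, with 1 circRNA and no reads, and it was also on the gastric list.

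Lists of RNA-binding and nuclear proteins lay near the share of the whole table, 35.5%. For mRNA processing and splicing it was 30.5% (78 of 256, interval 25.2 to 36.4), with 4 without reads each in FIP1L1, SF3B3 and SYMPK. Among DEAD and DEAH box helicases, the family of DDX5, it was 33.3% (32 of 96). DDX46, a helicase of the early spliceosome, had no reads in 6 of its 7 circRNAs and DDX21, a nucleolar helicase, in 5 of 12. For factors of circRNA formation and turnover it was 33.9% (20 of 59), and G3BP2, a stress granule protein, had none in 3 of 3 while its paralog G3BP1 had reads in 5 of 8. Chromatin regulators had 32.8% (177 of 539), Wnt and TGF-beta signaling genes 27.7% (28 of 101, interval 19.9 to 37.1) and zinc finger genes of the ZNF series 37.3% (60 of 161). Every interval of these lists covered the share of the table.

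The circRNAs without reads could not enter a comparison of DDX5 with NC cells, but the detected circRNAs of their hosts could. The 1714 hosts with both kinds gave 63.2% and 62.3% of the back-splice reads in DDX5 cells, against 62.9% and 63.9% in NC cells. The means were 62.8 ± 0.665% in DDX5 cells and 63.4 ± 0.747% in NC cells (SD, n = 2 each), a difference of -0.642 percentage points, smaller than the spread within a group (exact permutation test, two-sided, p = 0.667, where 2 against 2 libraries cannot reach 0.05). These hosts had 2284 and 1753 detected circRNAs in DDX5 cells, against 2173 and 2573 in NC cells (exact permutation test, two-sided, p = 0.667). The libraries ranked in these numbers as they did in their sums of back-splice reads, and the groups overlapped.

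Of 4671 circRNAs with at least 10 reads, edgeR's quasi-likelihood test called 4 at an adjusted p under 0.05 (0.0856%), all of them higher in DDX5 cells. By direction, the calls were 4 higher and 0 lower with RLE size factors, 2 and 0 with DESeq2, and 11 and 2 with the replicate block. The direction was not kept in every fit with a library left out, where 1 group holds a single library. No direction is therefore read from these calls. Of these circRNAs, 2918 came from hosts of circRNAs without reads and 3 were called (0.103%), in TNPO1, UBE3A and GSE1. None of the 1351 that shared a site with a circRNA without reads was called, and DESeq2 called 0 as well. At an unadjusted p under 0.05, edgeR gave 30 of these 1351 (2.22%), with 12 higher and 18 lower, 68 of the 2918 (2.33%) and 124 of all (2.65%). The shares lay near the background in each case. The split of the 1351 by direction changed with the libraries used, so no direction is read from it: leaving out the first DDX5 library gave 5 higher and 45 lower, the second DDX5 library 1 higher and 29 lower, the first NC library 25 higher and 9 lower, and the second NC library 26 higher and 9 lower.

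TNPO1, a nuclear import receptor, had 3 circRNAs without reads among its 5. Its called circRNA had 52 and 42 reads in DDX5 cells, against 0 and 0 in NC cells, so that the groups did not overlap. If each NC 0 stood for at most 3 reads, as counting error alone allows, it was at least 19.0-fold higher in DDX5 cells (edgeR, adjusted p = 0.00645). Zeros beside much higher counts occur among these circRNAs, so 3 reads may not be an upper bound and 19.0-fold may not be a lower one. The call was kept with DESeq2 (adjusted p = 0.0123), with the replicate block (0.0122) and without either NC library (0.00308 and 0.00120). It was lost without DDX5 replicate 1 (adjusted p = 0.569) or DDX5 replicate 2 (0.247), which leave 1 DDX5 library. GSE1, a component of a histone deacetylase complex, had 177 and 400 reads in DDX5 cells, against 159 and 169 in NC cells. Its values were 2258 and 6647 RPM in DDX5 cells, against 2173 and 1725 RPM in NC cells (log2 fold change 1.05 ± 0.25, SE, adjusted p = 0.0426 by edgeR). This call was absent with DESeq2 (adjusted p = 0.813) and without any of the 4 libraries (adjusted p between 0.290 and 0.987).

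UBE3A, a ubiquitin ligase, had 90 and 0 reads in DDX5 cells, against 0 and 0 in NC cells (edgeR, adjusted p = 0.0270), and this call rests on DDX5 replicate 1. With DESeq2 its adjusted p was 0.813, and with edgeR it was 0.187 without NC replicate 1 and 0.0706 without NC replicate 2. Below the calls, DDAH1, an enzyme that degrades methylarginines, shared a site with a circRNA without reads. It had 0 and 0 reads in DDX5 cells, against 29 and 44 in NC cells (edgeR, unadjusted p = 0.000659, adjusted p = 0.440). PANK2, a pantothenate kinase, had 0 and 0 reads in DDX5 cells, against 30 and 29 in NC cells (edgeR, unadjusted p = 0.00332, adjusted p = 0.951). Neither passed the adjusted threshold. They are examples: other circRNAs of such hosts, some higher and some lower in DDX5 cells, had smaller unadjusted p-values by edgeR than that of PANK2.

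Summed per host gene, 2703 hosts were tested and 0 were called (0%) by edgeR at the adjusted threshold, 1424 of them hosts of circRNAs without reads. At an unadjusted p under 0.05, edgeR gave 68 hosts (2.52%), and 34 of the 1424 (2.39%), with 15 higher and 19 lower. This split also depended on the libraries: it was 10 higher and 82 lower when the first DDX5 library was left out, 7 higher and 42 lower for the second DDX5 library, 41 higher and 11 lower for the first NC library and 35 higher and 11 lower for the second NC library. DESeq2 called 1 at the adjusted threshold (0.0370% of all hosts), a host of a circRNA without reads (0.0702% of the 1424). Among the named hosts, RELL1 had a log2 fold change of -0.12 ± 0.11, ABCC4 of 0.06 ± 0.44 and RHOBTB3 of -0.47 ± 0.25 (SE, adjusted p = 0.999 each, edgeR). RHOBTB3 had 5091 and 3157 RPM in DDX5 cells, against 5822 and 5288 RPM in NC cells.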

How the data were processed

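The authors deposited the counts of back-splice reads of each circRNA and a table of RPM values, in which every library is scaled to the same sum. Per the paper, circRNAs were called with CIRCexplorer2 and CIRI2. BWA and hg38 stand in the submitters' processing notes. Versions, filters and how the callers' lists were merged: not given in the sources used here. No columns of the authors' own comparisons are in the files, and 0 columns of per-sample values were left unused. The 2 libraries of a group are biological replicates per the paper, but separate cultures are not stated, so p-values measure the spread between these libraries only.

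Start and end of few circRNAs matched GRCh38 exon edges (90 starts), so coordinates are printed as in the files, their build is uncertain, and a circRNA was placed where its span equals that of exactly 1 pair of exon edges of its host in GENCODE 29, found for 11351 of 11760. In hosts with several placed circRNAs, 3299 of 3308 circRNAs without reads had the same shift between both coordinate systems, within 5 bases. A shared site is an equal start or end of a detected circRNA of the same host. Host names were used as given, and 33 circRNAs had a host without a match. Of 1 circRNA without reads the host is not named.

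DDX5 and NC counts were compared with edgeR 4.0.16 in R 4.3.3 (quasi-likelihood test), with TMM factors, a total of at least 10 reads and Benjamini-Hochberg adjustment over all circRNAs or hosts tested, with a threshold of 0.05. The SE of an edgeR log2 fold change was derived as its absolute value divided by the square root of the F statistic. The fit was tested on simulated counts with the same dispersion for every circRNA or host. This setting does not cover a 0 beside a high count in the same group, as for UBE3A. The alternatives were RLE size factors, DESeq2 1.42.0, no filter, the replicate number as a block, other minimum totals and leaving out each library. Tables were handled with Python 3.11.15, pandas 2.3.3 and SciPy 1.17.1.

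The circRNAs, gene lists and tests were chosen with earlier results of these data known. The named hosts are the 10 with the most circRNAs without reads, the 10 with the most among hosts without any read and the 10 with the highest RPM. The values of some host genes are not reported here. The named circRNAs are the 5 shortest and 5 longest, and some with both sites in use and the highest RPM of their partners. The calls and some of the smallest p-values among detected circRNAs of the same hosts are also named. From each gene list, the hosts with the most circRNAs without reads are named.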

Additional observations from a re-analysis of the deposited data

How the results depend on the processing

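The number of circRNAs without reads was between 4845 and 5611 when each library was left out in turn, and 4640 with totals of at most 3 reads counted as none. The ratio of median spans was 1.18, and 1.31 against circRNAs with at least 10 reads, 1.70 against those seen in all 4 libraries, 1.31 with 1 value per host and 1.09 within hosts of both kinds. It was between 1.15 and 1.32 with a library left out. The share of hosts with another detected circRNA was 51.9% where detection meant at least 10 reads and between 58.3% and 62.3% with a library left out. The share with a shared site was then 29.4% and between 35.7% and 37.5%. The share that began at exon 2 was between 21.3% and 21.6%, and the difference in reads of the hosts between -1.17 and -0.114 percentage points. The last 2 alternatives were chosen after seeing the data.

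Of all circRNAs, DESeq2 called 2 and the fit with the replicate block 13, and leaving out a library gave between 0 and 33, where a group of 1 library takes its spread from the other group. In hosts of circRNAs without reads the calls were 1 with DESeq2, 7 with the replicate block and between 0 and 13 with a library left out. Among those that share a site they were 1 with the block and between 0 and 6. Of host genes, 1 was called with DESeq2, 2 without the filter, 3 with the block and between 0 and 12 with a library left out. For hosts of circRNAs without reads these were 1, 2, 1 and between 0 and 5. Same-numbered libraries did not deviate together (r = 0.00538 over 4671 circRNAs, -0.0257 over 2703 hosts), so the replicate numbers were not taken to pair the libraries. The cause of these changes was not tested. By counting error alone, a listed 0 allows up to 3 reads in a library at this depth.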
